A study of Mus musculus with 4 samples.

Results

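The regions described here are hub anchors at coding-gene ends. An anchor is a 10 kb bin of the mouse genome (build mm10) that takes part in at least 1 listed H3K27ac HiChIP interaction, and a hub anchor is one with 20 or more of them. A hub anchor was taken as lying at a gene end when its bin came within 2.5 kb of the first or last base of an autosomal protein-coding gene. There were 318 such bins among 56427 anchors, and another 304 hub anchors lay away from coding-gene ends. The 318 bins held ends of 342 genes, which is 1.65% of the 20665 autosomal coding genes. Of the 18617 anchors at coding-gene ends, 1.71% were hub anchors. The number of interactions chose these bins, so it is given throughout as a description and not as a result.

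H3K27ac HiChIP ligates fragments of chromatin that touch in the nucleus and enriches those carrying acetylated lysine 27 of histone H3, a mark of active promoters and enhancers. The sample titles name the assay ChIP-seq, whereas the protocol and the series' design name HiChIP, and the file lists pairs of bins. The labels list 2 libraries of YAP-M tumor with the genotype YAP-M fusion and 2 libraries of mouse neural stem cells (mNSC), labelled neural progenitor cells and wild-type, all made from brain with an H3K27ac antibody. The neural stem cells were cultured with EGF, basic FGF and heparin, and the labels repeat that culture text for the tumor libraries. In YAP-M, the co-activator YAP1 is fused to MAMLD1. The sources used here do not give how the fusion was delivered or the age and number of the animals. The 1 interaction list analysed is read from the letters YM in its name as that of the YAP-M tumor, with no column for a library. It therefore gives no spread between replicates, it could not be compared with the neural stem cells, and its depth is unknown. Tumor tissue mixes cell types, and a contact held by few cells cannot be told apart from a weak contact held by all.

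A promoter is the stretch of DNA around a transcription start at which RNA polymerase is assembled, and enhancers are distal stretches that raise its activity, often by coming near it through folding of the chromatin. Genes under the control of many enhancers are commonly found among regulators of development and of cell identity, whereas genes that every cell needs tend to rely on sequence close to the start. Immediate feedback regulators, such as phosphatases that switch off MAP kinases and proteins that hasten mRNA decay, are short-lived products whose genes are switched on and off by growth signals.

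To show what such an anchor holds at its core, the promoters of 6 genes are printed. They are the first genes beyond the 10 largest hub anchors that stand alone in their bin, have their start in it and have a promoter in the RefSeq table used here. Each runs 5′ to 3′ on the gene's own strand from 250 bases before the start to 50 bases from the start onward, as given by RefSeq for GRCm38.p6, the assembly of mm10. Capitals mark matches on either strand to any of 8 motifs: GGAATG (bound by TEAD factors), TGANTCA (AP-1), TGACGTCA (the cyclic AMP response element), TATAAA (the TATA box), the CCAAT box, GGGCGG (the GC box), CACGTG (the E-box) and the CArG box. Where matches touch or overlap they form 1 run of capitals.
Foxo1, chr3:52268087-52268386, plus strand: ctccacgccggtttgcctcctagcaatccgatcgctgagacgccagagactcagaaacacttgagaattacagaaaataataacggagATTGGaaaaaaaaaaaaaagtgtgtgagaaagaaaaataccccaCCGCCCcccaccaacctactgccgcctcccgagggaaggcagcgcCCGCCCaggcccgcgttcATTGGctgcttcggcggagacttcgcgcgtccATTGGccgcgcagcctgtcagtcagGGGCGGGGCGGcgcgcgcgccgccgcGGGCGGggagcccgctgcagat
Klf4, chr4:55532426-55532725, minus strand: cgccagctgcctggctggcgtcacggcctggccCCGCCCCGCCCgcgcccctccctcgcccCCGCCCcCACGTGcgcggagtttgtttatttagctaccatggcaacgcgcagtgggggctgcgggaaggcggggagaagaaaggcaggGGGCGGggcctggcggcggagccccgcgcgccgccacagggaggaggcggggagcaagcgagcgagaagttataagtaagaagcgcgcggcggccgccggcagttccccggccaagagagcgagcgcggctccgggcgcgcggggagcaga
Fosl2, chr5:32136222-32136521, plus strand: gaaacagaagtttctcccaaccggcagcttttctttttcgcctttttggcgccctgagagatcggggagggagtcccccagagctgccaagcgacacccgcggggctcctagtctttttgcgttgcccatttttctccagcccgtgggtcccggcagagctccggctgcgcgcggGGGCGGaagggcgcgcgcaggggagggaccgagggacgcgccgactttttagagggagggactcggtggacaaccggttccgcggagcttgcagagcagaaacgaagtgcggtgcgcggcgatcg
Plk2, chr13:110394794-110395093, plus strand: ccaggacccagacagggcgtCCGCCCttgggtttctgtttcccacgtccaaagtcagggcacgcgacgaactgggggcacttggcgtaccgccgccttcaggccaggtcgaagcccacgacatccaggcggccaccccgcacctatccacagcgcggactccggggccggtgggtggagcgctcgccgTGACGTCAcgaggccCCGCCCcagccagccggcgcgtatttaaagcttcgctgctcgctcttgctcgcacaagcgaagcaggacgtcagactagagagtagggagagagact
Basp1, chr15:25413715-25414014, minus strand: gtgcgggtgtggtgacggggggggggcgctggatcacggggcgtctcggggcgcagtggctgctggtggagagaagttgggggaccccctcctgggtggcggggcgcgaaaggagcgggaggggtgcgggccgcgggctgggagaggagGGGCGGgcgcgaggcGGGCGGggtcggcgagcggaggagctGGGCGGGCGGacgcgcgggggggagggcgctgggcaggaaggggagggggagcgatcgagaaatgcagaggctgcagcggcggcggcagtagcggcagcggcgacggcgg
Btg1, chr10:96616751-96617050, plus strand: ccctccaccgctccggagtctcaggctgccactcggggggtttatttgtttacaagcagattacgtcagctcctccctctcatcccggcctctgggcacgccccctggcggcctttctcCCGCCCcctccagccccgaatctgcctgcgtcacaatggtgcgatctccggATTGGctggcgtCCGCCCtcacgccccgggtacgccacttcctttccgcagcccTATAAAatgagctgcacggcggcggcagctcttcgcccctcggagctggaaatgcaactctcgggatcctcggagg

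All 6 promoters held more G and C than the median of 57.3% over the promoters in bins of coding-gene ends. Foxo1 encodes a forkhead factor restrained by insulin signalling, and its promoter held 5 GC boxes and 3 CCAAT boxes in 61.3% G and C. Klf4 encodes a Krüppel-like factor of self-renewal, with 4 GC boxes and 1 E-box in 74.3% G and C. Fosl2 encodes an AP-1 subunit, and 1 GC box was its single match. Plk2, a stress-induced polo-like kinase gene, held 2 GC boxes and 1 cyclic AMP response element. Basp1, which encodes a membrane-bound signalling protein of growing axons, held 4 GC boxes in 78.0% G and C. Btg1, an antiproliferative gene of mRNA decay, held 2 GC boxes, 1 CCAAT box and 1 TATA box. None of the 6 windows held the TEAD or AP-1 motif or a CArG box, which says only that these letters are not in these 300 bases.

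Hub anchors at gene ends spanned a wide range, with a long tail of moderate ones. The median was 24.5 interactions, the interquartile range 21.25 to 30.75 and the highest value 86. There were 159 bins with 20 to 24 interactions, 72 with 25 to 29, 47 with 30 to 39, 18 with 40 to 49 and 22 with 50 or more. Together 9133 interactions, 9.22% of the list, had such a bin at an end. The threshold cut through a continuous distribution: 44 bins had exactly 20 interactions, and 45 gene-end anchors had exactly 19. Just inside were the bin of Rdh10 and Rpl7, that of Nrp2, a semaphorin and VEGF co-receptor, and that of Ikzf2, an Ikaros-family zinc finger gene. Just outside, with 19, were 2 bins at Glul, the glutamine synthetase gene.

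**Figure D1:**
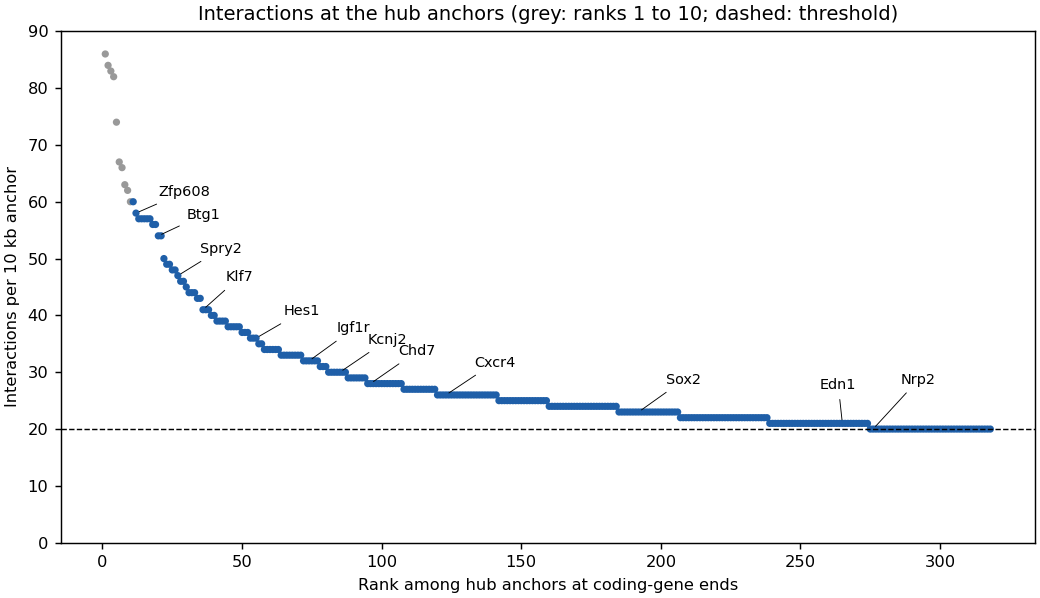
Interactions per 10 kb hub anchor (y axis) against rank among the 318 hub anchors at coding-gene ends (x axis), with ranks 1 to 10 in grey and the threshold of 20 dashed. Values fall from 86 to 60 over the first 10 ranks, and 159 of the 318 bins lie between 20 and 24.

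Most of these bins covered a start of transcription rather than the far end of a gene. Strand was known only for genes in the promoter table, which left 243 of the 318 bins. In 210 of the 243, or 86.4% (exact 95% interval 81.5 to 90.5), the start lay in the bin or within 2.5 kb of it. The same share was 68.3% for gene-end anchors with 1 to 4 interactions, 79.4% for those with 5 to 9 and 81.6% for those with 10 to 19. The remaining 33 hub bins held an opposite end only, and 75 bins held a gene outside the promoter table and no known start. Bins with a known start were kept even where another of their genes was outside the table, so all of these shares can be too high. For Sgk1, a kinase gene induced by serum, and Tsc22d1, a leucine-zipper gene induced by TGF-beta, the bin lay at the last base of the annotated gene and still held the start of a shorter transcript. Exact (Clopper-Pearson) intervals here and below cover counting error only, and they are too narrow because neighbouring bins are not independent.

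The 318 bins formed 294 separate loci, since 23 loci had 2 or 3 neighbouring bins. The locus of Fam43a and Lsg1 on chromosome 16 was the single one of 3 bins and is named for that reason, with 26, 38 and 21 interactions. Genes of 2-bin loci included Sgk1 (48 and 22 interactions), Nuak1 (24 and 41), Dusp4 (43 and 33), Gadd45g (44 and 27) and Irs1 (21 and 27). Btg1, which is 5.81 kb long, had a hub anchor at either end, with 54 and 32 interactions. Ccdc82, 45.6 kb long, had 32 and 34, and Nepro, 14.6 kb long, had 20 and 21. These were the 3 genes whose ends had separate hub anchors, with no hub bin in reach of both ends. Short genes with a hub bin in reach of both ends, such as Dusp4, were not counted. The bins of Ccdc82 also hold Jrkl and Maml2.

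The 10 largest hubs end in a tie at 60 interactions between Maf, a bZIP factor gene, and a second bin of Bcl6, a transcriptional repressor gene, which takes rank 11. Zfp608, Foxo1, Klf4, Fosl2 and Zfp703, all of them genes of transcriptional regulators, followed at ranks 12 to 16. Zfp608, a zinc finger gene, had 58 interactions, 16 to lower and 42 to higher coordinates, reaching 1000 kb. Foxo1 had 57, of which 55 lay at higher coordinates and 49 in bins between genes. Klf4 had 57 as well, all at higher coordinates up to 970 kb, and all of its partners lay between genes. At these 3 hubs most partners lay between genes, and only Zfp608 had more than 2 of them on its smaller side.

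Fosl2, with 57 interactions, showed another arrangement. Of its partners, 56 lay at lower coordinates, 44 inside genes and 8 at ends of other coding genes, among them Babam2, Rbks, Slc4a1ap, Gpn1, Mrpl33 and Supt7l. Its partners included 52 consecutive bins, the second longest such run among the 318 hubs. Zfp703, a zinc finger corepressor gene, had 57 partners, all lower, and Plk2 had 57, all higher. Thbs1, which encodes the matricellular protein thrombospondin, had 51 lower and 5 higher partners, and Basp1 had the same split. Contacts lay mostly to a single side at all 5 of these bins, lower at 4 of them and higher at Plk2.

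Several genes of the next ranks encode inhibitors of proliferation or of signalling. Btg1 had 54 interactions, 35 lower and 19 higher. Zfp36l1, an mRNA-decay factor that shares its bin with the predicted gene Gm52006, also had 54, all lower, with 40 partners inside genes. Id2, an inhibitor of basic helix-loop-helix factors, had 50, all higher, reaching 1000 kb and all between genes. Irs2, the insulin receptor substrate, had 48, of which 42 lay lower and 17 inside genes. Sgk1 had 48, all lower. Spry2, a receptor tyrosine kinase inhibitor, had 47, of which 42 lay lower. The side of the contacts again differed from gene to gene.

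Rnd3, whose product lowers actomyosin tension, had 46 interactions spread over 19 runs, where a run is a stretch of consecutive partner bins of the same hub. Jarid2, a cofactor of Polycomb repressive complex 2, had 46, of which 44 lay lower. Tsc22d1 had 45 in 4 runs, the longest of 39 bins. Rnd3 and Tsc22d1 thus had near-equal numbers of interactions and very different numbers of runs. Ppp3ca, the calcineurin catalytic subunit gene, had 44. Gadd45g, a growth-arrest gene, had 44, all higher. Jag1, a Notch ligand gene, had 43, of which 37 lay higher, and Dusp4, a MAP kinase phosphatase gene, had 43, all lower. Klf7, Nuak1 and the shared bin of Nap1l1 and Phlda1 had 41 each. Foxp1, a forkhead factor gene 597 kb long, had 40, all lower, and Hivep2, a zinc finger gene, had 40 split 21 to 19.

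**Figure D2:**
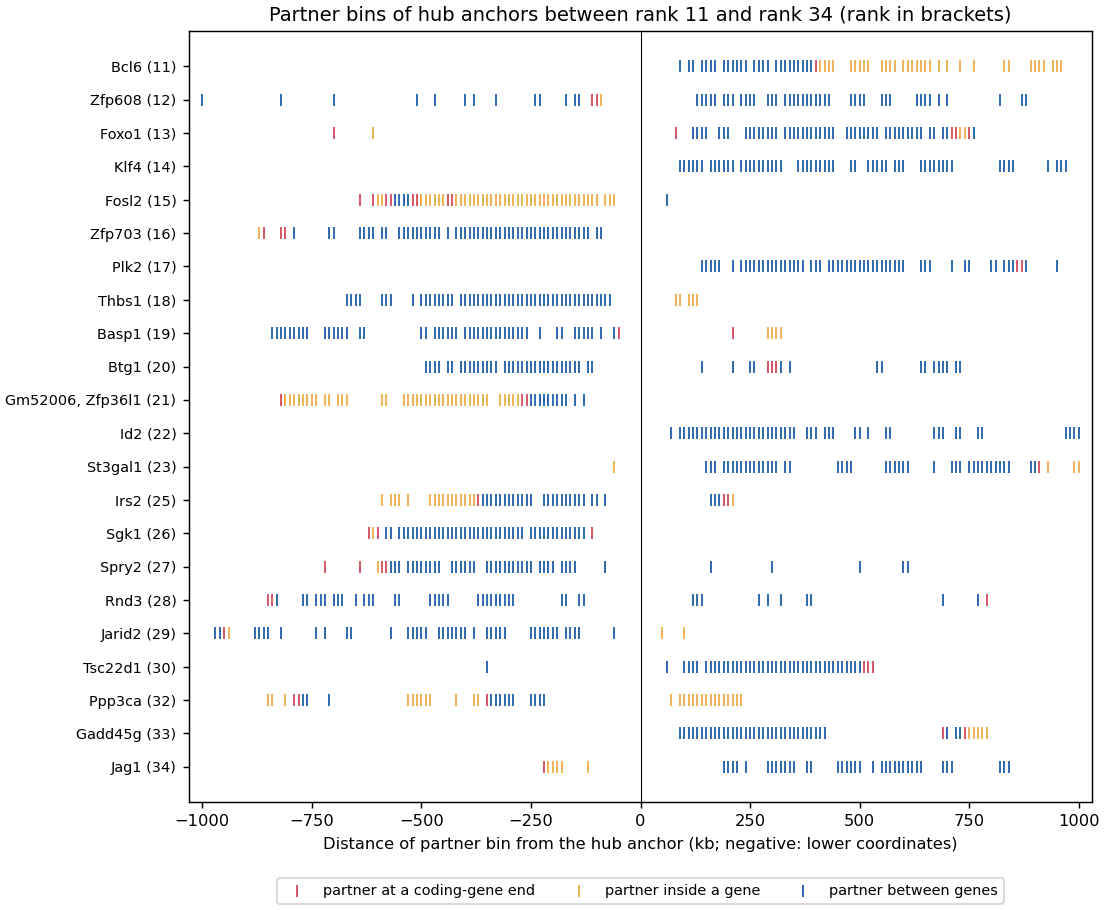
Distance of each partner bin from its hub anchor (x axis, kb, negative toward lower coordinates) for hub anchors between rank 11 and rank 34 (y axis, 1 row per anchor plotted), coloured by whether the partner lies at a coding-gene end, inside a gene or between genes. Klf4 and Id2 have partners between genes only and to 1 side, whereas 44 of the 57 partners of Fosl2 lie inside genes.

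Gene classes were compared by the share of their autosomal members that had a hub anchor at an end, against 1.65% of all coding genes. There were 86 classes defined by gene symbol, of which 50 stood above that share and 26 held no hub gene. In a small class 1 hub gene is enough to exceed it, as with Ets factors (1 of 23) and integrins (1 of 27). The number of classes above it thus depends on class size. A class takes in 127 of the 342 hub genes, and 215 fall in none. Genes that share a hub bin are each counted, and 255 of the 342 stood alone in a hub bin. Genes are not replicates, so no test accompanies these shares. The classes were chosen with earlier results of these data known, so the shares and their intervals are descriptions only.

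Among transcription factors, 47 of 958 genes (4.91%, exact 95% interval 3.63 to 6.47) were hub genes. The excess over the background was spread unevenly over families. AP-1 and related bZIP factors had 9 of 45, led by Jun (84), Maf (60) and Fosl2 (57). Krüppel-like and Sp factors had 5 of 25, with Klf6 (62), Klf4 (57), Klf7 (41) and Klf3 (39) highest. Klf3 shares its bin with Gm38457. Sox factors, which include regulators of neural stem cells, had 4 of 18: Sox4 (66), Sox6 (33), Sox2 (23) and Sox9 (22). Forkhead factors had 6 of 41, among them Foxo1 (57), Foxp1 (40), Foxo3 (33) and Foxc1 (24). Helix-loop-helix genes of neural development and the Hes and Hey repressors had 4 of 48, namely Hes1 (36), Tcf4 (24), Bhlhe41 (23) and Bhlhe40 (22). The numbers in brackets are interactions at the gene's highest hub bin.

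Several other families of transcription factors held few hub genes or none. The exact intervals of those named here all take in the background of 1.65%, so none can be placed below it. The Hox genes, which set position along the body axis, had 0 of 39 (exact interval up to 9.03%). Other homeobox genes had 1 of 120 (exact interval 0.0211 to 4.56%), Cux1 (32). TEAD and VGLL genes, the DNA-binding partners of YAP1 and their relatives, had 0 of 9 (exact interval up to 33.6%). Smad genes had 0 of 12 (up to 26.5%), and Stat, Irf and NF-kB genes 0 of 25 (up to 13.7%). Genes named Zfp had 6 of 388, or 1.55%; they include Zfp608 and Zfp703, and by their symbols also Zfp36l1 and Zfp36l2, which bind RNA. Absence of a hub anchor did not mean absence of contacts. The median gene had 4 interactions in the Hox class, 3 in the TEAD and VGLL class and 6 in the Smad class, against 2 over all coding genes.

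Feedback regulators had the highest share among the groups of classes, 19 of 103 genes or 18.4% (exact interval 11.5 to 27.3). Their median gene had 6 interactions. Antiproliferative and mRNA-decay genes of the Btg, Tob and Zfp36 families had 3 of 9 (Btg1, Zfp36l1 and Zfp36l2). Zfp36l2 shares its bins with Thada. Socs, Cish and Trib genes, inhibitors of cytokine and kinase signalling, had 3 of 11 (Trib2 34, Trib1 33, Socs2 29). Dual-specificity phosphatases, which switch off MAP kinases, had 3 of 22 (Dusp4 43, Dusp6 25, Dusp10 21). Sprouty and Spred genes with Errfi1 had 2 of 10 (Spry2 47, Spry1 27). Gadd45, Cited and Sertad genes had 2 of 9 (Cited2 82, Gadd45g 44). Every one of the 9 classes in this group held at least 1 hub gene.

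Genes of growth and the cell cycle had 11 of 93 (11.8%, exact interval 6.05 to 20.2). Within this group, regulators of mTOR and Akt had 5 of 30, among them Irs2 (48), Sgk1 (48), Pik3r1 (33) and Irs1 (27). These genes act together, since the Irs proteins and Pik3r1 pass on the insulin signal and Sgk1 is a kinase below it. Cyclins and their kinases had 3 of 17, with Ccnd1 (26), Cdk6 (23) and Ccnd2 (20), the parts of the complex that drives cells out of G1. Survival genes had Bcl2l11 (36), a pro-apoptotic gene that shares its bin with Acoxl, and Bcl2 (21), its anti-apoptotic relative, that shares its bin with Kdsr. Cyclin-dependent kinase inhibitors and the p53 axis had Plk2 (57) alone of 24 genes.

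Signal genes had 16 of 294 (5.44%, exact interval 3.14 to 8.69). Notch ligands, receptors and Mastermind genes had 3 of 17: the ligand Jag1 (43) and the co-activators Maml2 (34) and Maml3 (30). Matricellular CCN and thrombospondin genes with Timp and Serpine genes had 3 of 19, Thbs1 (56), Ccn6 (21) and Ccn4 (20). Hippo kinases and adaptors had 3 of 31, the cadherin Fat1 (30), the kinase Taok3 (28), which shares its bin with Suds3, and the four-jointed homologue Fjx1 (22). Wnt ligands, receptors and effectors had 3 of 56, Tcf7l2 (33), Wnt5a (29) and Fzd1 (20). The ligands Tgfb2 (26), Bmp4 (22), Pdgfc (22) and Vegfa (22) were hub genes too. Fibroblast growth factors had 0 of 20 (exact interval up to 16.8%) and chemokines and interleukins 0 of 80 (up to 4.51%).

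Receptors and adhesion genes had 9 of 353 (2.55%, exact interval 1.17 to 4.78), close to the background. Receptor tyrosine kinases had 3 of 37, Igf1r (32), Fgfr2 (24) and Pdgfra (24), all of them receptors of growth factors. Semaphorin receptors had Nrp1 (67) and Nrp2 (20), integrins Itga4 (30) and connexins Gja1 (21). Eph receptors and ephrins had 0 of 21 (exact interval up to 16.1%). Matrix genes had 5 of 134 (3.73%, exact interval 1.22 to 8.49), 4 of them ADAM or ADAMTS proteases: Adamts9 (26), Adam10 (25), Adamts6 (25) and Adamts1 (24). Chromatin genes had 7 of 278 (2.52%, exact interval 1.02 to 5.12). Among them were Jarid2 (46), the remodeller Chd7 (28) and the Polycomb genes Eed (25) and Bmi1 (23). Bmi1 shares its bin with Commd3.

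Genes of the housekeeping classes held few hub genes, and genes of other tissues none. The housekeeping classes also take in 145 F-box and Trim genes of ubiquitin ligases. Housekeeping classes had 6 of 574 (1.05%), and the exact interval of 0.385 to 2.26 takes in the 1.65% of all coding genes. They were led by the proteasome gene Psmd12 (26), the F-box gene Fbxo11 (26) and the proteasome gene Psma1 (22). Psmd12 shares its bin with Pitpnc1, and 3 of the 6 stood alone in a hub bin. Ribosomal protein genes had Rpl7 (20) alone of 77, in a bin shared with Rdh10. Carriers and channels had 9 of 703 (1.28%, exact interval 0.587 to 2.42), which takes in the background too. Olfactory, vomeronasal and taste receptors, cytochromes P450, defensins, glucuronosyltransferases and serpins had 0 of 1731 (exact interval up to 0.213%), with a median of 0 interactions. Keratins had 0 of 109 (exact interval up to 3.33%) and histones 0 of 80 (up to 4.51%), so neither can be placed below 1.65%. Housekeeping genes were nonetheless well connected below the threshold, with a median of 3 interactions.

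**Figure D3:**
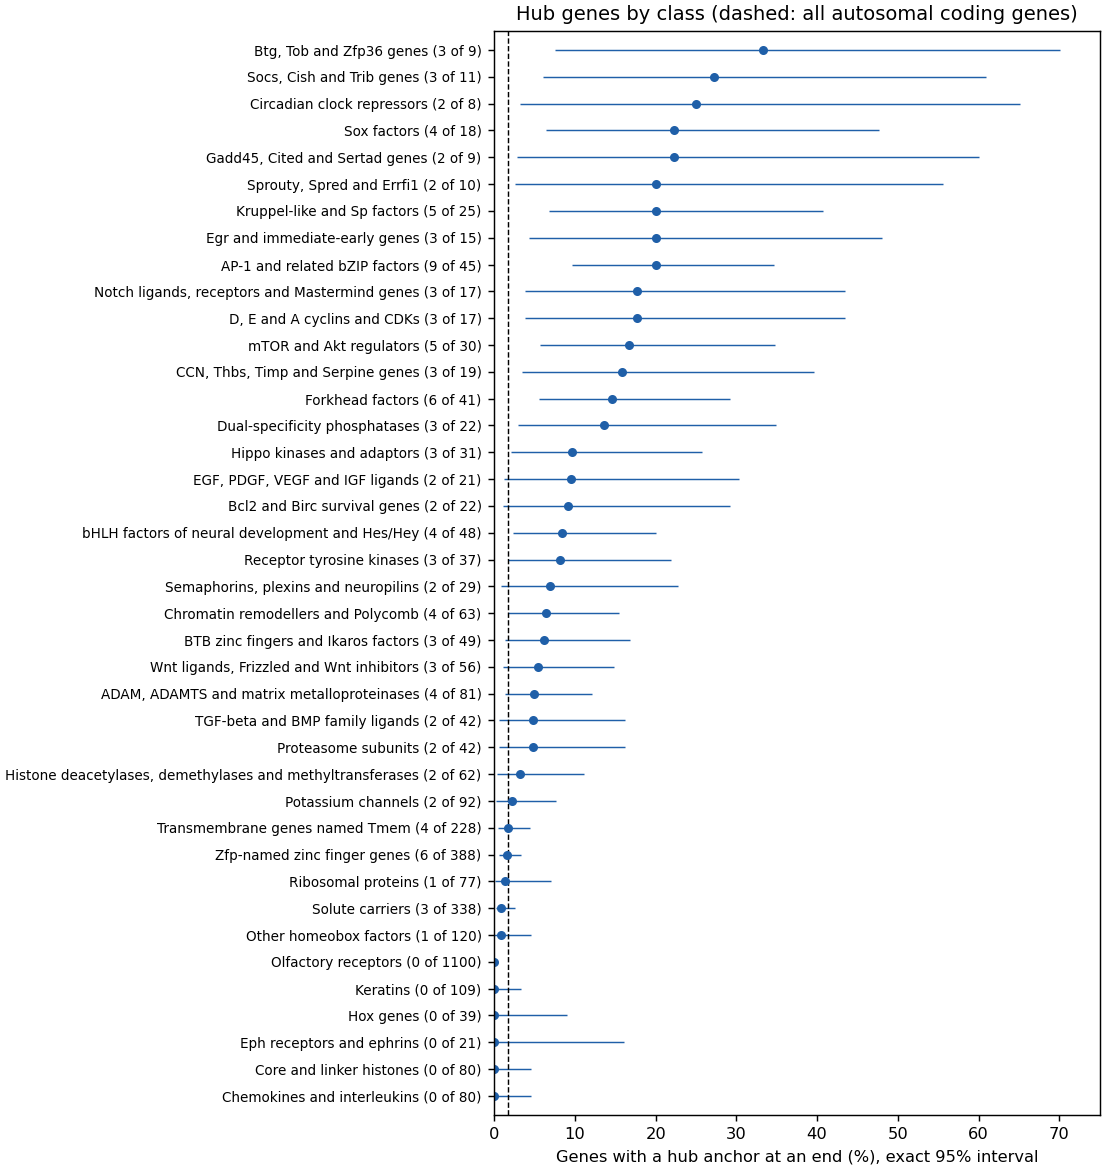
Share of the genes of each class with a hub anchor at an end (x axis, percent, with exact 95% intervals), for most classes with 2 or more hub genes and 8 others (y axis, hub genes of all genes in brackets), and the 1.65% of all coding genes dashed. Btg, Tob and Zfp36 genes lie highest with 3 of 9, and Hox genes, keratins, histones, chemokines, Eph genes and olfactory receptors lie at 0.

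Some hub genes outside these classes fell into groups that were formed after the values were seen, so their counts only list what was found. Enzymes of glycan chains had 9 of 100, among them St3gal1 (49), a sialyltransferase, Ext1 (33), which builds heparan sulfate, Sulf2 (30), which removes sulfate groups from it, and B4galnt3 (29). B4galnt3 shares its bin with Ninj2. Corepressors and cofactors of nuclear receptors had 4 of 23, Tle3 (39), Nrip1 (38), Tbl1xr1 (34) and Irf2bp2 (29). AMPK-related kinases had 3 of 16, Nuak1 (41), Sik1 (25) and Hunk (24). The chemokine receptors Cxcr4 (26) and Ackr3 (23), which bind the same chemokine, were both hub genes.

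Cell-type markers were read for the cells that a brain tumor can hold. Neural stem cell and radial glia genes had 4 of 19, Hes1 (36), Sox2 (23), Sox9 (22) and Vim (20), the intermediate filament of these cells. Astrocyte genes had Sox9 and Gja1 of 12, oligodendrocyte-lineage genes Pdgfra of 11, and pericyte and fibroblast genes Foxc1 (24) and Acta2 (20) of 11. Acta2 shares its bin with Stambpl1. Neuron genes had 0 of 16, ependymal and motile cilium genes 0 of 20, microglia and macrophage genes 0 of 16 and endothelial genes 0 of 12. The exact upper bounds of these zeros lie between 16.8% and 26.5%, so the lists are too short to place them below the other lists. The microglia list had a median of 4 interactions per gene and the neuron list 1. A listed contact is no measure of expression, and the part of any cell type in these counts was not tested.

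Hub genes stood in gene-poor surroundings, and class shares have to be read with that in mind. The median hub gene had 7 other coding genes within 500 kb, against 17 for genes with no interaction and for genes with 1 to 4 or 5 to 9, and 13 for genes with 10 to 19. This was not particular to gene ends. Counted per bin, the median was 6 for hub anchors at gene ends and 6 for those away from them. It was 11 for gene-end anchors with 10 to 19 interactions. Among coding genes with 0 to 9 neighbours there were 222 hub genes of 5342 (4.16%). Among those with 10 to 17, 18 to 29 and 30 to 89 neighbours the shares were 1.40%, 0.636% and 0.243%. Class differences were seen within this gene-poor set as well. There, 40 of 309 transcription factors (12.9%) and 18 of 34 feedback regulators (52.9%) were hub genes, against 3 of 131 housekeeping genes (2.29%) and 0 of 86 genes of other tissues. Outside that set, among genes with 10 to 89 neighbours, 7 of 649 transcription factors (1.08%) and 1 of 69 feedback regulators (1.45%) were hub genes, against 120 of 15323 coding genes (0.783%). Nearly all hub genes of both groups therefore lay in gene-poor surroundings. With 18 to 29 neighbours feedback regulators had 0 of 18, and with 30 to 89 neighbours transcription factors had 0 of 211.

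Gene length and class content changed along the whole scale of interactions, not only at the threshold. The median length was 9.45 kb for genes with no interaction, 21.0 kb with 1 to 4, 21.9 kb with 5 to 9, 24.9 kb with 10 to 19 and 27.1 kb for hub genes. Transcription factors made up 3.35%, 5.20%, 4.64%, 5.61% and 13.7% of these 5 sets. Feedback regulators made up 0.141%, 0.432%, 0.689%, 0.872% and 5.56%. For both groups the step between the last pair of sets was larger than all steps before it. Housekeeping genes rose over the first 4 sets, from 1.5% to 4.61%, and stood at 1.75% among hub genes.

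**Figure D4:**
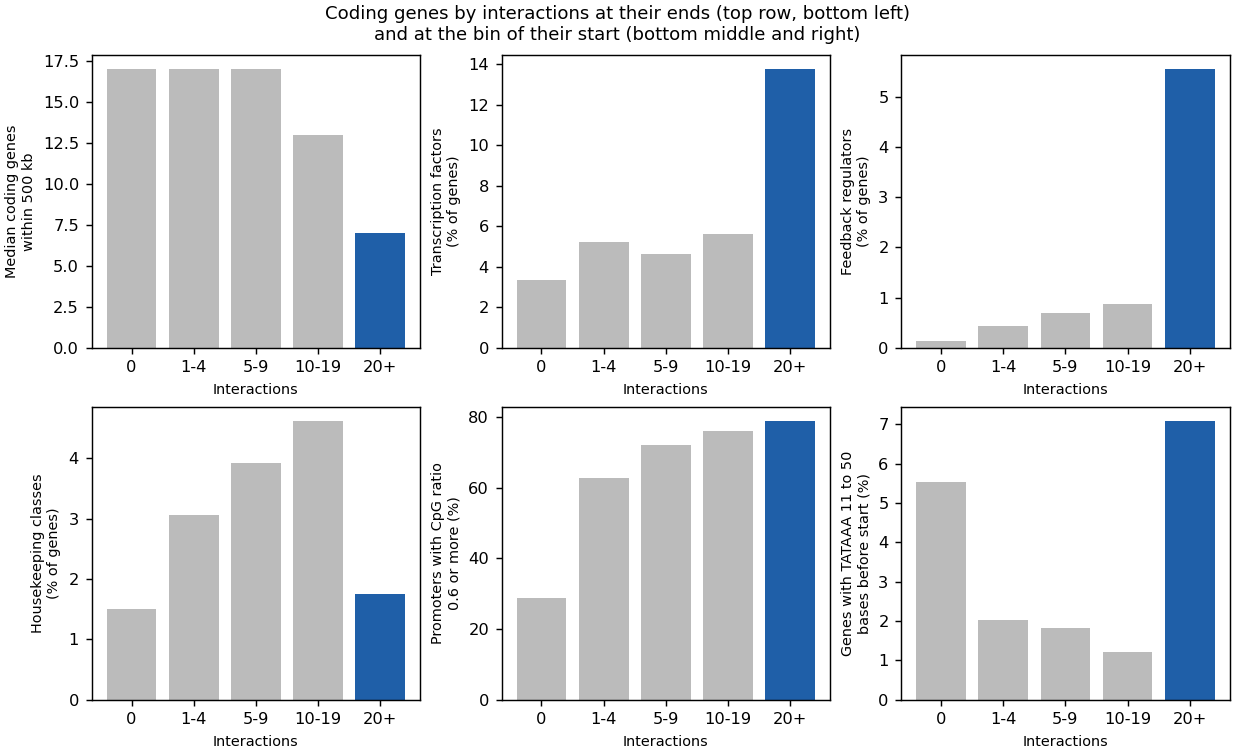
Coding genes in 5 sets by their number of interactions (x axes; hub genes in blue), with the median number of coding genes within 500 kb, the share of transcription factors, feedback regulators and housekeeping classes, the share of promoters with a CpG ratio of 0.6 or more, and the share of genes with TATAAA 11 to 50 bases before a start. Housekeeping genes stand highest at 10 to 19 interactions (4.61%) and transcription factors at 20 or more (13.7%).

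Promoter sequence was read for the 212 genes that have an annotated start, and an end, in a hub bin, through 268 RefSeq promoters. Their median CpG ratio, the observed over the expected number of CG pairs, was 0.833, against 0.610 over 18290 promoters in the bins of gene ends. The ratio climbed with interactions, from 0.287 in bins with none through 0.714, 0.780 and 0.802. A ratio of 0.6 or more, the usual mark of a CpG island, was reached by 78.7% of hub promoters and 50.9% of all. The GC box stood in 69.4% of hub promoters and 48.3% of all, the E-box in 14.2% and 8.15%, and CCAAT in 36.9% and 38.5%. Some genes have several promoters, and no share per gene was read for the GC box, E-box or CCAAT. The median content of G and C was 64.7% in hub promoters and 57.3% in all, and its part in these shares was not tested. TGACGTCA stood in 4.48% and 2.41%. All promoters include many in bins with no interaction, and those in bins with 10 to 19 interactions stood closer to the hubs. There a CpG ratio of 0.6 or more was reached by 75.9%, the GC box stood in 63.9%, the E-box in 9.60% and TGACGTCA in 3.48%. GGAATG, the TEAD motif, stood in 10.8% of hub promoters and 13.1% of all, and TGANTCA in 4.48% and 6.93%. In bins with 10 to 19 interactions they stood in 9.51% and 4.71%. Neither short motif of TEAD or AP-1 was thus more frequent at hubs than over all promoters. GGAATG stood slightly above its share at 10 to 19 interactions. Per gene it stood in 12.3% of hub genes (exact interval 8.17 to 17.5) and 10.5% of genes in those bins. These 300-base windows leave out distal sequence. The CArG box stood in 2.61% and 1.39% of promoters, but some genes have several promoters. Per gene it stood in 4 of 212 hub genes (1.89%, exact interval 0.516 to 4.76) and in 1.51% of all genes so read. TGACGTCA stood in 9 of 212 hub genes (4.25%, exact interval 1.96 to 7.91). That interval takes in the 3.82% of genes with 10 to 19 interactions and the 2.58% of all.

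A TATA box is the motif that sets the start of transcription at many strongly inducible and tissue-specific genes. TATAAA on the gene's strand, 11 to 50 bases before a start, was present in 15 of the 212 genes, or 7.08% (exact 95% interval 4.01 to 11.4). It was present in 3.57% of all 15924 genes so read, in 5.53% of those in bins with no interaction, and in 2.04%, 1.81% and 1.20% of those with 1 to 4, 5 to 9 and 10 to 19 interactions. The share was thus lowest directly below the hub threshold and highest above it, but the interval of hub genes takes in the 5.53%. Some genes have several promoters, and per promoter the shares were 5.60% at hubs, 5.07% with no interaction and 1.04% with 10 to 19. The 15 genes are Abca1, Adamts1, Btg1, Cxcr4, Gadd45g, Jarid2, Lbh, Pxdc1, Rnd3, Sgk1, Tgfb2, Tha1, Vim, Zbtb18 and Zfp36l1, named after this count was seen. For 8 of them the 40 bases are printed to show the shared element, in capitals, in otherwise unlike sequence.
Btg1, chr10:96616951-96616990, plus strand: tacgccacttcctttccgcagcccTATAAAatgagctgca
Zfp36l1, chr12:80113024-80113063, minus strand: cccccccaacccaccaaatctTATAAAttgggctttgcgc
Sgk1, chr10:21992173-21992212, plus strand: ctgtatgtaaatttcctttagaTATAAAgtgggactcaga
Jarid2, chr13:44731221-44731260, plus strand: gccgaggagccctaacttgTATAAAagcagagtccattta
Rnd3, chr2:51149122-51149161, minus strand: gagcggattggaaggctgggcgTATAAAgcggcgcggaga
Gadd45g, chr13:51846625-51846664, plus strand: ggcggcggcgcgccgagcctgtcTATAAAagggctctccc
Cxcr4, chr1:128592310-128592349, minus strand: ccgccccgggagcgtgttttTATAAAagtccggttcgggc
Vim, chr2:13574261-13574300, plus strand: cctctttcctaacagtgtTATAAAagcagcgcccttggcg

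The first base of TATAAA lay 24 to 32 bases before the start in all 15 genes. Of the 8 genes printed, Btg1 and Zfp36l1 act in mRNA decay, Sgk1, Gadd45g and Rnd3 are inducible regulators of survival, growth arrest and cell shape, Jarid2 recruits Polycomb, Cxcr4 is a chemokine receptor and Vim an intermediate filament. Their numbers of interactions ran from 20 (Vim) to 54 (Btg1 and Zfp36l1). The CpG ratio of these promoters ran from 0.370 (Sgk1) to 0.840 (Zfp36l1).

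The arrangement of contacts was compared with that of hub anchors away from gene ends as a description, without a test, because bins of 1 list are not replicates. Contacts of hub anchors at gene ends lay mostly to 1 side. The median share of partners on the larger side was 95.8%, and 137 of the 318 bins (43.1%) had all partners on 1 side. In hub anchors away from gene ends the median was 100% and 155 of 304 (51.0%) had all partners on 1 side. Even splits were found at Kcnj2, an inward-rectifier potassium channel gene (50%), Tle3 (51.3%), the co-activator gene Ncoa2 (52.2%), Coa7 (52.4%) and Edn1, the endothelin gene (52.4%). Of the 212 bins with 90% or more on 1 side, the larger side held fewer coding genes within 1000 kb than the smaller in 130 (61.3%) and more in 65 (30.7%). Among the 223 such hubs away from gene ends the counts were 108 (48.4%) and 99 (44.4%). The side with fewer genes was thus the larger one more often at gene-end hubs than at the other hubs.

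The larger side lay upstream of the start about as often as downstream. Of 165 bins whose gene and start were known, 84 had more partners upstream of the start, 80 more downstream and 1 an equal number, and 52.5% of all partners lay upstream. Klf4 and Id2 had all of their 57 and 50 partners upstream, whereas Plk2 and Gadd45g had all 57 and 44 downstream. Genes of 100 kb or more had 45.5% of partners upstream (19 of 48 bins with more upstream), and shorter genes 55.2% (65 of 117).

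The reach of these hubs covered most of the allowed range. The median longest distance was 600 kb (interquartile range 440 to 827.5), and that of hub anchors away from gene ends was 590 kb. Listed distances end at 1000 kb, and 56 bins reached 900 kb or more. The bins with the most interactions among those at 1000 kb were at Bcl6, Zfp608, Id2, St3gal1 and Foxp1. The shortest reach was 230 kb at Spsb1, which encodes an adaptor of ubiquitin ligases, followed by Cxcr4 with 240 kb and Cdk6, Apbb2 and Prag1 with 250 kb each. The median distance of a partner was 270 kb, and 300 kb for hubs away from gene ends.

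Runs of neighbouring partner bins were longer at gene ends. Partners fell into a median of 7.5 runs, against 9 for hubs away from gene ends. The longest run had a median of 10 bins (interquartile range 6 to 15) against 8 (6 to 11), and a maximum of 82 against 29. The longest runs were at Bcl6 (82), Fosl2 (52), Jun (45), Tsc22d1 (39) and Thbs1 (35). At the other end, Setbp1 had no run above 2 bins, and Nr4a3, Bmp4, Nrp2 and Tlr5 none above 3. Most runs were found at Klf6 (24), Zfp608 (24), Myc (22), Rnd3 (19) and Nrp1 (19), and the partners of Apbb2 formed 1 run of 21 bins. Interactions were also merged over the whole list, by joining every pair whose left bins were the same or adjacent and whose right bins were too. Runs of a hub can then be joined through interactions of neighbouring anchors, and the median was 7 merged contacts, against 8 for hubs away from gene ends. The 7 runs at the second bin of Gadd45g, for example, became 1 merged contact.

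**Figure D5:**
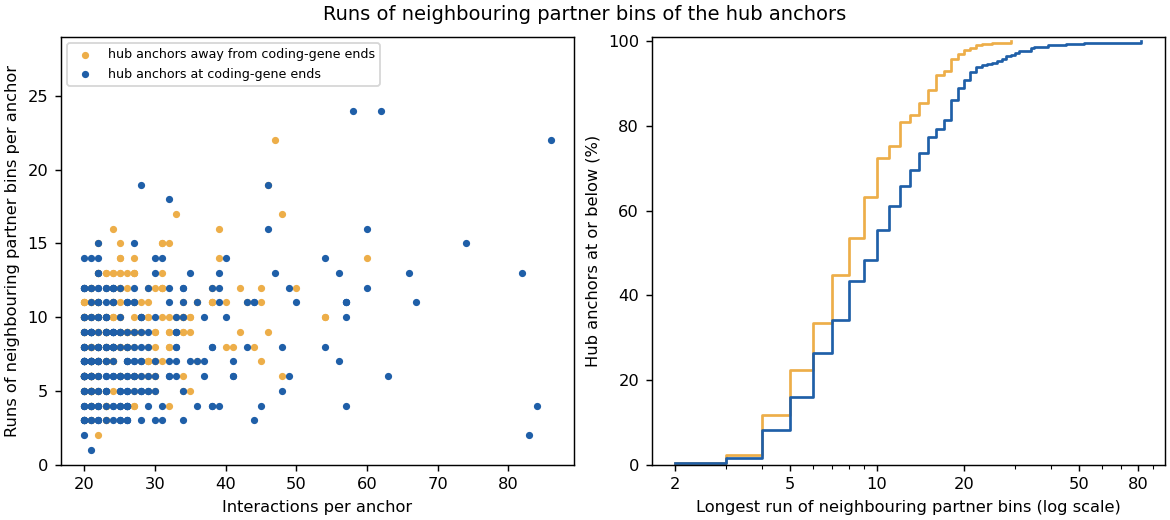
Left, runs of neighbouring partner bins (y axis) against interactions (x axis) per hub anchor; right, share of hub anchors (y axis, percent) with a longest run of neighbouring partner bins at or below the value on the x axis (log scale), for hub anchors at coding-gene ends (blue) and away from them (orange). The blue curve lies to the right at most run lengths, with medians of 10 and 8 bins.

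Most partners of hub anchors at gene ends lay away from gene ends. Of 9156 partner bins, 15.3% lay at a coding-gene end, 31.0% inside genes and 53.7% between genes. The share at gene ends was 16.8% for hub anchors away from them and 38.1% for the 1448 gene-end anchors with 10 to 19 interactions. No end of another coding gene was among the partners of 59 bins (18.6%), Klf4, Thbs1, Id2 and Zfp608 among them, against 21 (6.91%) of the hubs away from gene ends. All partners lay between genes at 21 bins, which include Klf4, Id2, Sox2, Sox9 and Bmp4. Exceptions were found in gene-dense places. The bin of Lsr and Usf2 had 24 of its 29 partners at ends of other genes, that of Rnh1 20 of 22, that of Ube2b and Cdkl3 19 of 27, that of Pigyl 18 of 20, and that of Cdc42ep5, Leng8 and Leng9 17 of 26.

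The share of gene ends among partners depends on how many gene ends lay in reach, which was read next. Within the spans that these hubs reached, 46.8% of bins at ends of other coding genes were partners, against 37.5% of bins between genes and 34.2% of bins inside other genes. At 100 to 300 kb the shares were 54.4%, 48.9% and 42.6%, and beyond 300 kb 47.5%, 34.8% and 31.6%. Per available bin, ends of other genes were thus contacted more often than bins between genes at each range of distance, within 100 kb by 23.9% to 20.3%. Bins inside the hub's own gene were partners in 45.1% of cases, and in 65.7% at 100 to 300 kb. For hub anchors away from gene ends, 51.4% of gene-end bins and 33.1% of bins between genes were partners.

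Some hubs at starts of long genes kept most of their contacts inside the gene. Over all 318 bins, 10.4% of partners lay inside the hub's own gene, and in 35 bins more than 50% did. A gene of the transcription-factor classes lay at 5 of these 35 bins, among them Foxp1 (38 of 40 partners inside), Sox6 (24 of 33) and Cux1 (23 of 32). Apbb2 (21 of 21), which is 320 kb long, Ptprg (23 of 23), a receptor tyrosine phosphatase gene, and Kcnma1 (29 of 29), a calcium-activated potassium channel gene 713 kb long, had all partners inside their own gene. High shares were also found at Enox1 (22 of 23), Slc24a3 (21 of 22), Maml3 (27 of 30), Mgat5 (23 of 26), Prkce (29 of 34) and Ldlrad4 (24 of 30), so these genes were of many kinds. Fosl2 and Zfp36l1 had most partners inside genes that were not their own, as their own lengths are 21.4 and 5.25 kb.

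Links from hub to hub made up a small part of the interactions. Of all partners, 2.41% were hub anchors of any position. Hubs make up 1.1% of all anchors, but 1 hub can be a partner many times, so 1.1% is no baseline here. The share of hub anchors among partners was 6.66% for hubs away from gene ends and 3.26% for gene-end anchors with 10 to 19 interactions. The median partner of a gene-end hub had 3 interactions itself, against 5 for the other hubs. Partners were also seldom linked to each other, in 6.11% of the pairs within the allowed distances against 12.6%. Within this set, 23 interactions joined 2 gene-end hubs, at a median distance of 340 kb, and 277 of the 318 bins were linked to no other. Most of these hubs were thus joined to many bins that had few interactions of their own.

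The 23 links, whose genes are named after their values were seen, included the following. Klf7 was linked to Creb1, a cyclic AMP-responsive factor gene 410 kb away. Bcl2 and Kdsr were linked over 540 kb to Phlpp1, a phosphatase gene that acts on Akt, and the bin of Dusp10 and 1700056E22Rik over 700 kb to Hlx, a homeobox gene. Vim was linked over 300 kb to the shared bin of Cubn and Rsu1. Trib1 was linked over 270 kb to the bin of Nsmce2 and Washc5, Ccn4 over 220 kb to Tg, and Sik1 over 170 kb to the lens crystallin gene Cryaa. There were 3 groups of 3 bins. Fosl2 formed one with Slc4a1ap and the bin of Babam2 and Rbks over 580 kb of chromosome 5. Ptpa, Ier5l and 1700001O22Rik formed another over 360 kb of chromosome 2, and Tomm20 with 2 bins of Irf2bp2 the third, over 350 kb of chromosome 8.

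Hub anchors at gene ends were found on all 19 autosomes. Chromosomes 1 and 10 held 27 each, the highest number. Relative to gene-end anchors, chromosomes 13 (3.04%) and 10 (2.94%) had the highest shares and chromosomes 9 (1.01%) and 11 (1.03%) the lowest. Chromosome 11 had 17 hub anchors at coding-gene ends and 6 away from them, so that 73.9% lay at gene ends, against 33.3% on chromosome 4. Over the genome, 51.1% of hub anchors (exact interval 47.1 to 55.1) and 33.0% of all anchors lay at coding-gene ends. Of all anchors, 1.1% were hubs, and of those away from coding-gene ends 0.804%.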

How the data were processed

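H3K27ac HiChIP was read from 1 deposited list of 99041 interactions. Per the file headers, the deposited values are the chromosome, start and end positions of both anchors of each interaction, with no counts or scores. BWA and mm10 are named in the submitters' processing notes; the sources used here do not give the caller, its threshold or any pooling of libraries. The letters YM in the list's name assign it to the YAP-M tumor, and no list of the neural stem cells was analysed here. Neighbouring bins can hold 1 physical contact, so the number of interactions per bin also depends on how calls were made.

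Each bin's interactions were counted, and gene ends, neighbours and promoters came from RefSeq tables of GRCm38.p6, which had a promoter for 16457 of 20665 autosomal coding genes (262 of the 342 hub genes). Python 3.11.15, pandas 2.3.3, NumPy 2.4.6, SciPy 1.17.1 and matplotlib 3.10.9 were used. The counting was tested on simulated data. No test across libraries was possible; shares carry exact (Clopper-Pearson) 95% intervals, for counting error only.

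The set of bins and the gene classes were chosen with earlier results of these data known. Genes named are those of the hub bins of rank 11 to 40 and up to 4 per class. Also named are the 5 highest and lowest bins per measure and 3 bins on each side of the threshold. Genes with separate hub bins at both ends are named as well. Others are said to be named after their values were seen, as are genes chosen as examples of 2-bin loci and of contacts inside genes. Alternatives were thresholds of 15, 25 and 30 interactions, gene-end windows of 0 and 5 kb, bin midpoints, all annotated genes, starts only, merging within 1 or 2 bins, genes alone in their bin, and leaving out the 10 largest hubs. Some genes are not reported here, and their anchors or classes are left out of the plots that would name them.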

Additional observations from a re-analysis of the deposited data

How the results depend on the processing

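The number of hub anchors at coding-gene ends follows the threshold: there were 690 with 15 or more interactions, 159 with 25 or more and 87 with 30 or more, and 175 when the bin's midpoint had to lie in the window. The share of hub anchors at gene ends was 46.3% with a window of 0 kb, 56.5% at 30 or more interactions, 28.1% by midpoint and 70.3% with all annotated genes. The share of coding genes with a hub anchor was 3.67%, 0.827% and 0.440% at 15, 25 and 30 interactions, 0.929% by midpoint and 1.39% for starts only. At those 3 thresholds transcription factors had 8.14%, 2.92% and 2.30% and housekeeping classes 3.66%, 0.348% and 0%; feedback regulators had 10.7% at 30, and signals 3.06% at 25 and 2.04% at 30. Divided by the share of all coding genes, feedback regulators stood 6.09, 11.2, 18.8 and 24.3 times above it at 15, 20, 25 and 30 interactions, and transcription factors 2.22, 2.96, 3.53 and 5.21 times. Housekeeping classes stood at 0.997, 0.632, 0.421 and 0 times that share, so they were not below it at 15 or more.

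The median share on the larger side was 87.5% over merged contacts. The median longest distance was 500 kb at 15 or more interactions and 760 kb at 30 or more. Merging within 2 bins left a median of 5 contacts. Partners at gene ends made up 11.1% by a 0 kb window, 18% by a 5 kb window and 11.7% as the median over bins. Hub partners made up 6.22%, 1.30% and 0.764% at 15, 25 and 30 interactions. Of the recomputed main values, 32 moved and 35 did not, and the 32 are among those given above. Shares and medians counted as unmoved when they stayed inside the 95% interval of the main value. The number of bins, which has no interval, was judged by its fold change. For single classes 368 of 430 values did not move.

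No paired analysis was possible because 1 list names no replicate. Leaving out a library, and a stricter score threshold, were not run because the list has no library column and no score. Depth is unknown, so hubs just below the threshold cannot be told apart from those just above it.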
